A study of Homo sapiens with 8 samples.

Results

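The keratins described here are 9 genes, chosen by name: the type II keratins KRT7, KRT8, KRT80, KRT81 and KRT86 and the type I keratins KRT10, KRT17, KRT18 and KRT19. They are 9 of the 31461 genes listed for 8 RNA-seq libraries of human lung cancer lines. The libraries carry the labels A549, a lung adenocarcinoma line, and NCI-H1299 (H1299 below), a large cell carcinoma line. Each line was transfected with miR-29a-3p or with a control microRNA (miR-ctrl), and each of the 4 groups held 2 libraries. The genotype of both lines is given as wild type, and the sources used here give neither the dose nor the time after transfection. Expression was deposited as FPKM, a fragment count per length of transcript and per mapped total, which scales a level to the length of the transcript and the depth of the library. Of the 9 keratins, 8 reached 1 FPKM in at least 2 libraries and were tested, and KRT17 did not. Tests used limma on log2(FPKM + 1) over all 14635 genes that passed the same filter, with an adjusted p (Benjamini-Hochberg) under 0.05 as the limit for a call. Fold changes are miR-29a-3p over control on that scale, so changes of genes near 1 FPKM or below come out too small, and each ± after a fold change is a standard error.

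Keratins are the intermediate filament proteins of epithelial cells, and a filament is built from heterodimers of a type I and a type II chain. KRT8 and KRT18 are the partner pair of simple epithelia, KRT7 and KRT19 join them in glandular and ductal cells, KRT10 belongs to differentiating epidermis, KRT17 to basal and stressed epithelium, and KRT81 and KRT86 to the hair cortex. KRT80 is a more divergent type II keratin found in many epithelia. MicroRNAs of the miR-29 family pair through their seed with matching sites, mostly in 3′ UTRs, and lower the level or the translation of the mRNA.

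The transfected microRNA is shown first, with its seed (bases 2 to 8) in capitals, because the sites that follow are read against it. It is the RefSeq sequence on GRCh38.p14, at chr7:130876748-130876769 on the minus strand.
hsa-miR-29a-3p: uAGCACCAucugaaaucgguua
The letters searched for were TGGTGCT, the 7mer that pairs with the whole seed, TGGTGCTA, its 8mer form, and GGTGCT, the 6mer contained in both, on the sense strand of each longest annotated 3′ UTR. KRT80 was the 1 keratin of the 9 with a 7mer, and KRT18 had a 6mer. The remaining 7 had neither in 3′ UTRs of 126 to 2190 bases. The longest 3′ UTR need not be that of a gene's main mRNA. KRT18 has 3 annotated transcripts with a 3′ UTR and KRT8 has 5, and 6mers were counted in the longest only. The 2190 bases are those of KRT8, longer than the whole KRT8 mRNA searched for shared stretches below (1638 windows of 50 bases). Whether the main KRT18 mRNA holds the 6mer was not tested. The stretches that hold these matches are shown from GRCh38, with the matches in capitals.
KRT80 3′ UTR, chr12:52169778-52169807, minus strand: aaaagagGGTGCTgatTGGTGCTtttcctc
KRT18 3′ UTR, chr12:52952457-52952486, plus strand: gccgttgctccgtgGGTGCTcctgtgtctt
In KRT80 the 6mer lay at bases 1723 to 1728 of a 3′ UTR of 2527 bases, and the 7mer at bases 1732 to 1738, with 3 bases between them. A 7mer or 8mer was present in 16.4% of the 11632 tested genes with an annotated 3′ UTR, and in 20.8% of the 1673 whose 3′ UTR was within 20% of the length of that of KRT80. A 6mer of any kind was present in 34.2% of the 11632. A match describes the letters of the sequence and does not show that the microRNA binds there.

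Marker genes of the lines went against the labels. CDKN2A, a cell cycle inhibitor deleted in A549, averaged 24.3 FPKM in the controls labelled A549 and 0.0818 FPKM in those labelled H1299, and 7 of 8 marker genes of A549 were higher in the controls labelled H1299. Libraries are therefore called A549-labelled or H1299-labelled throughout. Of 6 epithelial markers, CDH1, with mean levels of 0.0779 to 1.89 FPKM over the 4 groups, and EPCAM, with at most 0.135 FPKM in any library, were low in all libraries. The others were KRT7, KRT8, KRT18 and KRT19, which are described below, and KRT18 averaged 42.5 to 56.3 FPKM over the groups. All 6 summed to at least 69.0 FPKM in every library and to at most 526 FPKM, in an H1299-labelled control. None of 5 leukocyte and 5 endothelial markers and 1 of 5 fibroblast markers (LUM) reached 1 FPKM in at least 2 libraries. The summed fibroblast markers were 2.72 to 2.75 FPKM in the H1299-labelled miR-29a-3p libraries and 1.29 to 1.36 FPKM in their controls, and the summed leukocyte markers 1.23 to 1.31 FPKM with miR-29a-3p and 0.653 to 0.682 FPKM in the controls. Most of the fibroblast sum was LUM, with means of 1.66 FPKM with miR-29a-3p and 0.878 FPKM in these controls. Most of the leukocyte sum was CD14 (0.958 and 0.525 FPKM), while the leukocyte marker PTPRC had at most 0.00675 FPKM in any library. The part of these markers in the keratin values was not tested. The libraries held an estimated 12221310 to 15614821 fragments. Replicates are numbered in the labels, which do not tell whether cultures were separate, so the spread behind each p-value may be technical.

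**Figure D1:**
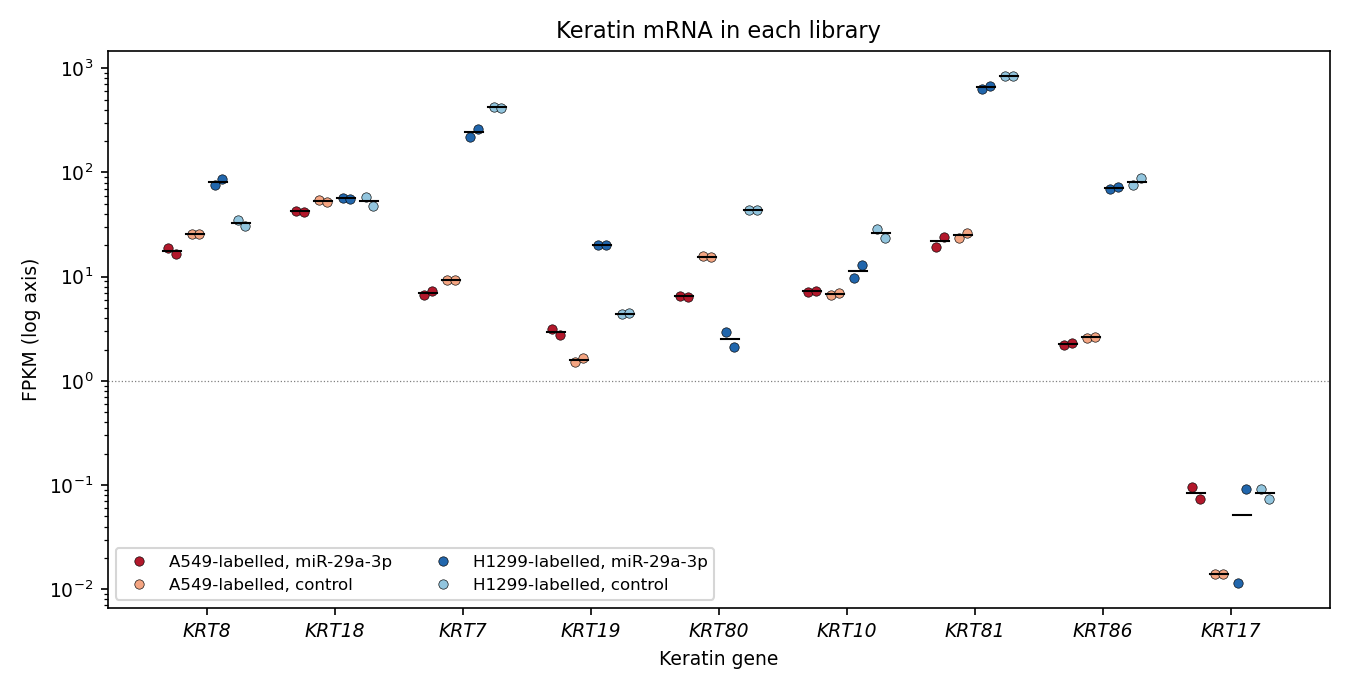
Level of each keratin in FPKM (log axis) in each of the 8 libraries, with points for libraries and bars for the mean of the 2 libraries of a group. KRT80 lies lower and KRT19 higher after miR-29a-3p in libraries of both labels, while KRT8 lies lower in the A549-labelled and higher in the H1299-labelled ones.

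KRT80 fell with miR-29a-3p in libraries of both labels, and KRT19 rose in both. KRT8 fell in the A549-labelled libraries and rose in the H1299-labelled ones. KRT7 fell in both, KRT10 and KRT81 fell in the H1299-labelled libraries, and KRT18 and KRT86 passed the test in neither. In the A549-labelled libraries 4 of the 8 tested keratins were called, 1 higher and 3 lower, where 16.0% of all genes were called (7.30% higher and 8.66% lower). In the H1299-labelled libraries 6 of 8 were called, 2 higher and 4 lower, where 50.0% of all genes were called (25.1% higher and 24.8% lower). Against that background, a call in the H1299-labelled libraries says little of the keratins as a set. The median log2 fold change of the 8 keratins was -0.26 in the A549-labelled and -0.28 in the H1299-labelled libraries, against a median of 0.00 over all genes tested in each. In bulk RNA, fewer cells of a type and less RNA per cell cannot be told apart.

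**Figure D2:**
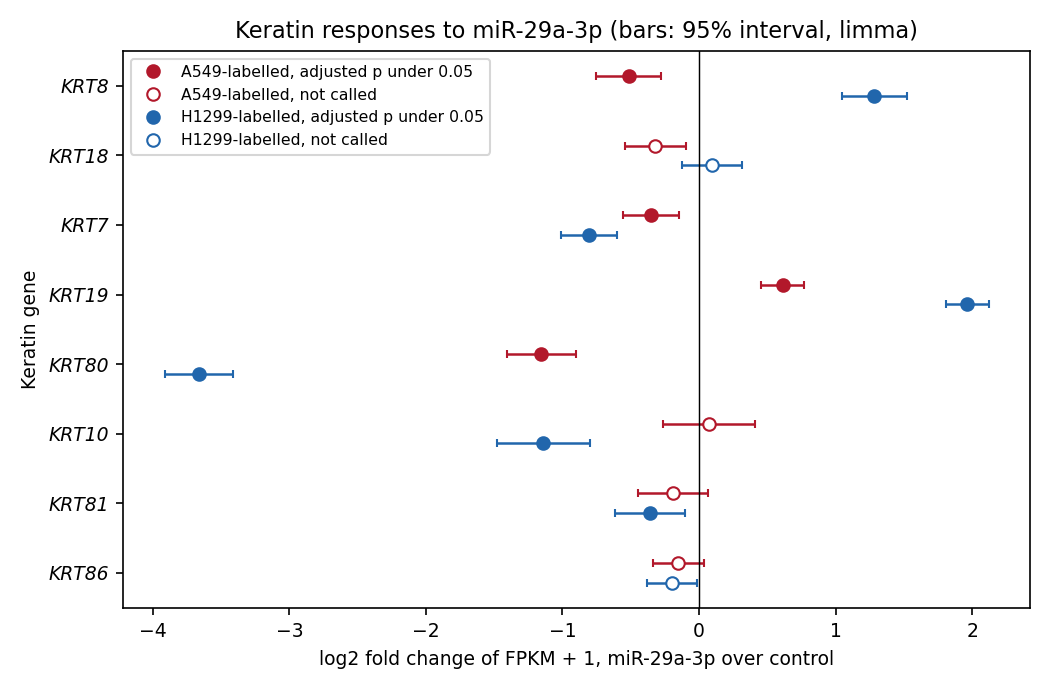
Log2 fold change, miR-29a-3p over control, of the 8 tested keratins in the A549-labelled and the H1299-labelled libraries, with 95% confidence intervals from limma. KRT80 lies at -1.15 and -3.66, KRT19 at 0.61 and 1.96, and KRT8 on opposite sides of 0 at -0.51 and 1.28.

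KRT80 (ENSG00000167767, chr12:52168996-52192000 on GRCh38, minus strand) stood at 6.50 and 6.41 FPKM in the A549-labelled miR-29a-3p libraries, against 15.9 and 15.3 FPKM in the A549-labelled controls. It stood at 2.95 and 2.14 FPKM in the H1299-labelled miR-29a-3p libraries, against 43.4 and 43.8 FPKM in their controls. Treated and control libraries did not overlap under either label. The replicates of each group lay within 1 FPKM of each other, far closer than the groups did. The log2 fold change was -1.15 ± 0.10 in the A549-labelled libraries (adjusted p = 0.0016) and -3.66 ± 0.10 in the H1299-labelled ones (adjusted p = 9.8e-06). The second value was the lowest of all 14635 genes tested in that comparison, and the first was the 39th lowest in its own. On the plain FPKM scale the mean level with miR-29a-3p was 0.414 times that of the A549-labelled controls and 0.0584 times that of the H1299-labelled controls. The 2 responses differed by 2.51 ± 0.15 (A549-labelled minus H1299-labelled, adjusted p = 0.00013). The values rest on an estimated 145 to 2948 fragments per library. The 3′ UTR of KRT80, shown above, is the 1 among the 9 with a 7mer match. A 7mer or 8mer was present in 20.8% of tested genes with a 3′ UTR of similar length. The part of the match in the fall was not tested.

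With miR-29a-3p, KRT80 had the lowest mean level of the 8 tested keratins in the H1299-labelled libraries, whereas 3 of them lay below it in the controls. The order of mean levels in the H1299-labelled controls was KRT81, KRT7, KRT86, KRT18, KRT80, KRT8, KRT10 and KRT19. With miR-29a-3p it was KRT81, KRT7, KRT8, KRT86, KRT18, KRT19, KRT10 and KRT80. Neighbours in either order did not overlap between libraries.

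KRT8 (ENSG00000170421, chr12:52897187-52949954, minus strand), the type II chain of simple epithelia, stood at 19.0 and 16.6 FPKM in the A549-labelled miR-29a-3p libraries, against 25.6 and 25.8 FPKM in their controls. It stood at 75.3 and 86.0 FPKM in the H1299-labelled miR-29a-3p libraries, against 34.8 and 30.3 FPKM in theirs. The groups did not overlap under either label, and the directions were opposite. With miR-29a-3p its log2 change was -0.51 ± 0.10 in the A549-labelled libraries (adjusted p = 0.019) and 1.28 ± 0.10 in the H1299-labelled ones (adjusted p = 0.00013), a mean level 2.48 times that of the control. The responses differed by -1.80 ± 0.14 (adjusted p = 0.00032). The fall in the A549-labelled libraries was less firm than the rise. It missed the threshold without A549-labelled miR-29a-3p library 2 (adjusted p = 0.086), without A549-labelled control 1 (0.078) and without A549-labelled control 2 (0.087).

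KRT18 (ENSG00000111057, chr12:52948871-52952901, plus strand), the type I partner of KRT8, was not called under either label. It stood at 42.9 and 42.1 FPKM in the A549-labelled miR-29a-3p libraries, against 54.8 and 51.8 FPKM in their controls. It stood at 56.7 and 55.9 FPKM in the H1299-labelled miR-29a-3p libraries, against 58.3 and 47.5 FPKM in theirs, and only this last pair of groups overlapped. The log2 fold change was -0.32 ± 0.09 in the A549-labelled libraries (adjusted p = 0.063) and 0.10 ± 0.09 in the H1299-labelled ones (adjusted p = 0.43, 95% interval -0.12 to 0.32). The A549-labelled value passed without H1299-labelled control 1 or control 2 (adjusted p = 0.014 in each), with its line fitted alone (0.040) and with a mean of at least 5 FPKM required (0.046); the H1299-labelled controls were the least alike pair of KRT18 replicates. The H1299-labelled value turned on the same libraries, at 0.24 (adjusted p = 0.020) without control 1 and -0.05 (0.53) without control 2. The responses differed by -0.41 ± 0.13 (adjusted p = 0.046), which was no longer called on dropping a single A549-labelled library, whichever it was, or either H1299-labelled miR-29a-3p library (adjusted p of 0.078 to 0.12).

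The balance of the KRT8 and KRT18 mRNAs followed KRT8. The ratio of KRT8 to KRT18 levels in FPKM was 0.418 ± 0.034 in the A549-labelled miR-29a-3p libraries and 0.484 ± 0.022 in their controls (SD, n = 2 each). It was 1.43 ± 0.15 in the H1299-labelled miR-29a-3p libraries and 0.618 ± 0.029 in their controls (SD, n = 2 each). The 2 genes lie side by side on opposite strands, and their exons overlap over 525 bases. No source used here gives the strand setting of the counting, so reads of that stretch may be split between them.

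KRT7 (ENSG00000135480, chr12:52232520-52252186, plus strand), a type II keratin of glandular and ductal epithelium, was lower with miR-29a-3p under both labels. Its level was 6.72 and 7.32 FPKM in the A549-labelled miR-29a-3p libraries, against 9.20 and 9.26 FPKM in their controls. In the H1299-labelled miR-29a-3p libraries it was 221 and 264 FPKM, against 426 and 419 FPKM in theirs, with no overlap under either label. In log2 terms the change was -0.35 ± 0.09 in the A549-labelled libraries (adjusted p = 0.040) and -0.80 ± 0.09 in the H1299-labelled ones (adjusted p = 0.00045). The A549-labelled call is a narrow one: it was lost on leaving out any 1 of the 4 libraries of that label (adjusted p of 0.083 to 0.16), and without either H1299-labelled control (0.068 in each) or with its line fitted alone (0.058). The responses differed by 0.45 ± 0.12 (adjusted p = 0.027), a call that was lost without A549-labelled miR-29a-3p library 2 (0.082), either A549-labelled control (0.072 without control 1 and 0.069 without control 2) or either H1299-labelled control (0.076 without control 1 and 0.066 without control 2).

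KRT19 (ENSG00000171345, chr17:41523617-41528308, minus strand), the smallest type I keratin and a companion of KRT7 in simple epithelia, rose under both labels. It stood at 3.13 and 2.77 FPKM in the A549-labelled miR-29a-3p libraries, against 1.501 and 1.66 FPKM in their controls. It stood at 19.9 and 20.1 FPKM in the H1299-labelled miR-29a-3p libraries, against 4.34 and 4.43 FPKM in theirs. Every treated library was above every control of its label. Its log2 fold change was 0.61 ± 0.07 (adjusted p = 0.0028) in the A549-labelled libraries and 1.96 ± 0.07 (adjusted p = 9.9e-06) in the H1299-labelled ones, the 27th highest of the 14635 genes tested. On the plain FPKM scale the mean level was 1.87 times that of the controls in the A549-labelled libraries and 4.56 times in the H1299-labelled ones. The responses differed by -1.35 ± 0.09 (adjusted p = 0.00021). KRT19 and KRT7, which share the simple epithelial setting, thus moved in opposite directions in the libraries of each label.

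KRT10 (ENSG00000186395, chr17:40818117-40822595, minus strand), the type I keratin of differentiating epidermis, stood at 7.09 and 7.34 FPKM in the A549-labelled miR-29a-3p libraries, against 6.60 and 7.02 FPKM in their controls. These groups lay within 1 FPKM of each other, and the log2 fold change was 0.07 ± 0.14 (adjusted p = 0.77, 95% interval -0.27 to 0.41). In the H1299-labelled miR-29a-3p libraries it stood at 9.67 and 12.9 FPKM, against 28.5 and 23.4 FPKM in their controls. There the groups were well apart, with a log2 fold change of -1.14 ± 0.14 (adjusted p = 0.00086) and a mean level 0.435 times that of the control. The responses differed by 1.21 ± 0.20 (adjusted p = 0.0046).

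KRT17 (ENSG00000128422, chr17:41619441-41624842, minus strand), a keratin of basal and stressed epithelium, was near the limit of detection. It stood at 0.0961 and 0.0729 FPKM in the A549-labelled miR-29a-3p libraries and at 0.0141 and 0.0141 FPKM in their controls. In the H1299-labelled libraries it was at 0.0116 and 0.0925 FPKM with miR-29a-3p and at 0.0924 and 0.0738 FPKM in the controls. These levels came out at an estimated 0.565 to 4.52 fragments per library, so no change could be read at this depth. The lowest is less than a whole fragment, so the estimate may run low for this gene.

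KRT81 (ENSG00000205426, chr12:52285913-52291534, minus strand) and KRT86 (ENSG00000170442, chr12:52249300-52309163, plus strand), type II keratins of the hair cortex, had high levels in the H1299-labelled libraries and low ones in the A549-labelled libraries. KRT81 stood at 632.6 and 676 FPKM in the H1299-labelled miR-29a-3p libraries, against 841 and 838 FPKM in their controls, with no overlap. In the A549-labelled libraries it stood at 19.3 and 24.3 FPKM with miR-29a-3p, against 23.7 and 26.1 FPKM in the controls, and these groups overlapped. The log2 fold change was -0.19 ± 0.11 (adjusted p = 0.27) in the A549-labelled and -0.36 ± 0.11 (adjusted p = 0.029) in the H1299-labelled libraries. The H1299-labelled call was lost when any of its 4 libraries was left out: without miR-29a-3p library 1 (0.13) or 2 (0.064), or control 1 (0.098) or 2 (0.096).

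KRT86 stood at 2.19 and 2.32 FPKM in the A549-labelled miR-29a-3p libraries, against 2.58 and 2.65 FPKM in their controls. It stood at 68.7 and 72.9 FPKM in the H1299-labelled miR-29a-3p libraries, against 75.6 and 87.6 FPKM in theirs. The groups did not overlap under either label, but neither difference passed. The log2 fold change was -0.15 ± 0.08 in the A549-labelled libraries (adjusted p = 0.24) and -0.20 ± 0.08 in the H1299-labelled ones (adjusted p = 0.073), where it passed without H1299-labelled control 1 (-0.30, adjusted p = 0.018). For neither hair keratin did the difference between the responses pass. It was 0.17 for KRT81 (adjusted p = 0.42, 95% interval -0.19 to 0.53) and 0.05 for KRT86 (adjusted p = 0.77, 95% interval -0.22 to 0.31).

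Counted over the members, 7 of 8 keratins had treated and control libraries that did not overlap in the A549-labelled libraries, where 59.0% of all genes tested did so, and 7 of 8 in the H1299-labelled libraries, where 76.0% did. The exceptions were KRT81 in the A549-labelled libraries and KRT18 in the H1299-labelled ones. The difference between the responses passed for 6 of 8 keratins, where 37.3% of all genes passed. It was negative for 3 of them, KRT8, KRT18 and KRT19 (19.2% of all genes were called lower), and positive for 3, KRT7, KRT80 and KRT10 (18.1% were called higher).

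Stretches of some keratin mRNAs occur unchanged in other genes, and reads from them cannot be assigned with certainty. Of the 100-base windows of the KRT81 mRNA, 29.4% occur unchanged in KRT86, and 25.4% of those of KRT86 occur in KRT81. The levels of KRT81 and KRT86 kept a near constant ratio, at 9.64 ± 1.19 in the A549-labelled miR-29a-3p libraries and 9.52 ± 0.48 in their controls, and at 9.24 ± 0.05 in the H1299-labelled miR-29a-3p libraries and 10.4 ± 1.10 in their controls (SD, n = 2 each). The values of KRT86 in particular are uncertain, since KRT81 was the higher in every library. KRT87P, a hair keratin pseudogene that starts within the KRT86 gene, averaged 2.57 ± 0.24 FPKM in the A549-labelled miR-29a-3p libraries and 2.23 ± 0.02 in their controls, and 88.2 ± 0.49 FPKM in the H1299-labelled miR-29a-3p libraries and 97.9 ± 1.17 in their controls (SD, n = 2 each). It was not called under either label (adjusted p = 0.15 and 0.066), but its responses differed by 0.29 (adjusted p = 0.030).

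KRT18 shares 16.6% of its 100-base windows with other genes, all of them with KRT8, whose exons it overlaps, and 47.6% of its 50-base windows. KRT8 shares 4.47% of its 100-base and 24.1% of its 50-base windows with the pseudogene KRT8P3, and KRT8P3 moved as KRT8 did. It averaged 6.40 ± 0.45 FPKM in the A549-labelled miR-29a-3p libraries and 9.74 ± 0.14 in their controls, and 22.8 ± 0.65 in the H1299-labelled miR-29a-3p libraries and 10.1 ± 0.81 in their controls (SD, n = 2 each). Its log2 fold change was -0.54 (adjusted p = 0.0054) in the A549-labelled and 1.10 (adjusted p = 7.0e-05) in the H1299-labelled libraries. KRT8P12, with which KRT8 shares 0.244% of its 50-base windows, ran the other way, at 0.27 (adjusted p = 0.042) in the A549-labelled and -0.75 (adjusted p = 0.00022) in the H1299-labelled libraries. With KRT8 summed with its 34 listed pseudogenes, the A549-labelled response was -0.28 (adjusted p = 0.057), no longer called. The pseudogenes averaged 24.5 FPKM in the A549-labelled miR-29a-3p libraries and 25.7 in their controls, against 17.8 and 25.7 FPKM for KRT8. KRT8P12, which shares little sequence with KRT8, averaged 13.3 and 10.8 FPKM of that sum. The summed value is thus no measure of reads shared with close copies alone.

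**Figure D3:**
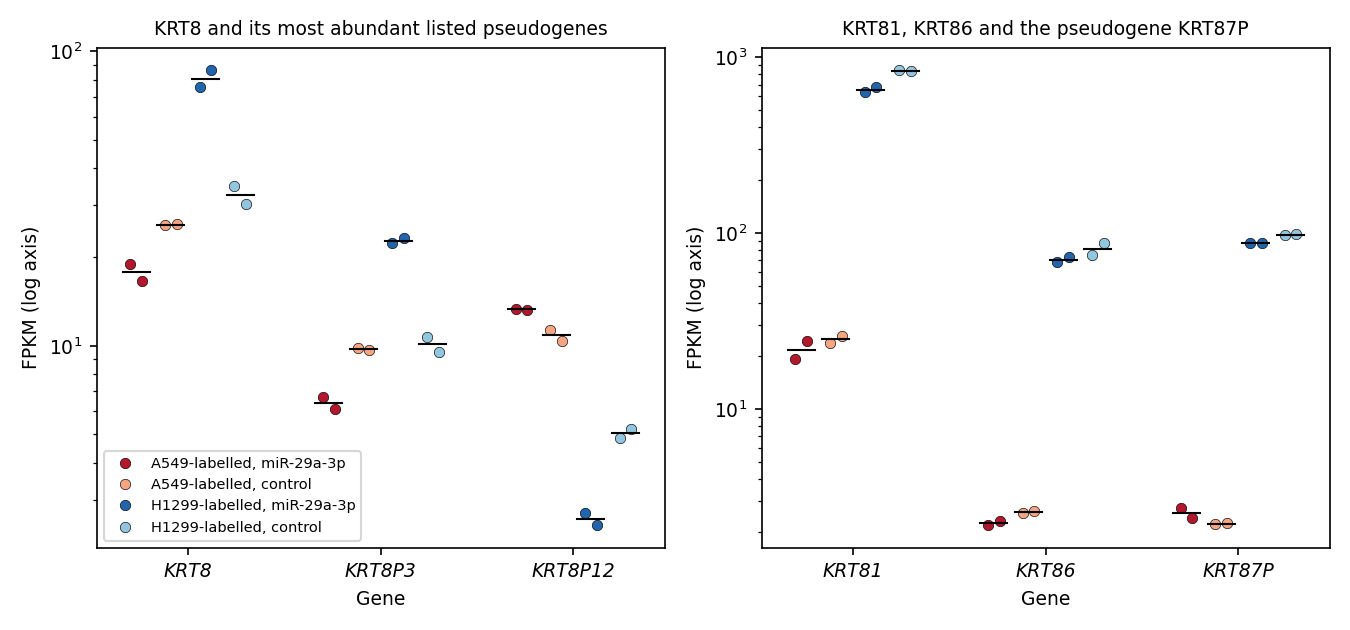
Levels in FPKM of keratins and the close copies named in the text, in each of the 8 libraries. KRT81, KRT86 and KRT87P all lie far lower in the A549-labelled than in the H1299-labelled libraries, and KRT8P3 follows KRT8, at 28.3% to 37.9% of its level in the group means.

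The makeup of the keratin mRNA differed between the labels and, under each label, with miR-29a-3p. The 9 keratins summed to 108 ± 1.6 FPKM in the A549-labelled miR-29a-3p libraries and 139.8 ± 0.20 in their controls, and to 1139 ± 73 in the H1299-labelled miR-29a-3p libraries and 1504 ± 13 in their controls (SD, n = 2 each). KRT81 made up 57.5% of the sum in the H1299-labelled miR-29a-3p libraries and 55.9% in their controls. KRT7 made up 21.3% with miR-29a-3p against 28.1% in the controls, and KRT80 0.226% against 2.90%. KRT8 made up 7.08% with miR-29a-3p against 2.17% in the controls, and KRT19 1.76% against 0.292%.

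In the A549-labelled libraries KRT18 was the largest contributor, at 39.3% of the sum with miR-29a-3p and 38.1% in the controls, and KRT80 made up 5.98% with miR-29a-3p against 11.2% in the controls, and KRT19 2.73% against 1.13%. The summed type II levels were 1.05 times the summed type I levels in the A549-labelled miR-29a-3p libraries and 1.27 times in their controls. In the H1299-labelled libraries the ratio was 11.98 with miR-29a-3p and 17.2 in the controls, where the replicates stood at 15.6 and 18.8. The summed type II members thus exceeded the summed type I members in every library, by far more in the H1299-labelled ones. In A549-labelled miR-29a-3p library 1 they were nearly equal, at a ratio of 1.008. The type II sum includes KRT81 and KRT86, whose reads cannot be assigned with certainty. They made up 24.0 of 55.3 FPKM in the A549-labelled miR-29a-3p libraries and 27.5 of 78.1 FPKM in their controls, on average. The type I sums there were 52.7 and 61.7 FPKM. Without these 2 hair keratins the type II sum would lie below the type I sum in the A549-labelled libraries. It would stay above it in the H1299-labelled ones.

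Between the controls of the lines, 7 of 8 keratins were called, all lower in the A549-labelled than in the H1299-labelled controls, where 74.8% of all genes were called (45.0% higher and 29.8% lower). KRT7 averaged 9.23 ± 0.04 FPKM in the A549-labelled controls and 423 ± 5.2 in the H1299-labelled ones (SD, n = 2 each), a log2 difference of -5.37 ± 0.09 (adjusted p = 6.6e-08). KRT81, at 24.9 ± 1.8 FPKM in the A549-labelled and 839.8 ± 2.1 FPKM in the H1299-labelled controls, differed by -5.02 ± 0.11 (adjusted p = 1.5e-07), and KRT86 by -4.51 ± 0.08 (adjusted p = 7.6e-08). KRT7, KRT81 and KRT86, which lie close together on chromosome 12, held the 14th, 22nd and 35th lowest differences of the 14635 genes tested.

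KRT10 (-1.78 ± 0.14), KRT80 (-1.43 ± 0.10) and KRT19 (-1.06 ± 0.07) differed by less. KRT8 differed by -0.32 ± 0.10 (adjusted p = 0.022), a call that was lost without either A549-labelled control (0.079 without control 1 and 0.072 without control 2), without H1299-labelled control 1 (0.12) and with its pseudogenes summed (-0.07, adjusted p = 0.42). KRT18 averaged 53.3 ± 2.1 FPKM in the A549-labelled and 52.9 ± 7.6 FPKM in the H1299-labelled controls (SD, n = 2 each), a log2 difference of 0.02 ± 0.09 (adjusted p = 0.88, 95% interval -0.20 to 0.24). The median difference of all genes was 0.17, and it was 0.32 with TPM scaling and 0.05 with median-of-ratios scaling, under which the KRT18 difference was -0.15. KRT18 passed without H1299-labelled control 1 (0.16, adjusted p = 0.044).

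Of the 9 genes, 6 lie within 1 Mb on chromosome 12, and they did not move as a block. From the start of KRT80, the starts of KRT7, KRT86, KRT87P and KRT81 lay 40.5, 57.3, 66.9 and 99.5 kb away, and KRT18 and KRT8 757 and 758 kb away. The fall of KRT80 in the H1299-labelled libraries was -3.66 on the log2 scale, against -0.80 for KRT7, its nearest keratin neighbour. ATG101, a gene of autophagy initiation on the other side of KRT80, stood at -0.55 (adjusted p = 0.00024) in the H1299-labelled libraries. In the A549-labelled ones it stood at 0.16 and was not called (adjusted p = 0.088). The other tested genes at the ends of the interval moved both ways in the H1299-labelled libraries. NR4A1 and TNS2 stood at 0.47 each and SPRYD3 at -0.44, all called, and EIF4B was not called.

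**Figure D4:**
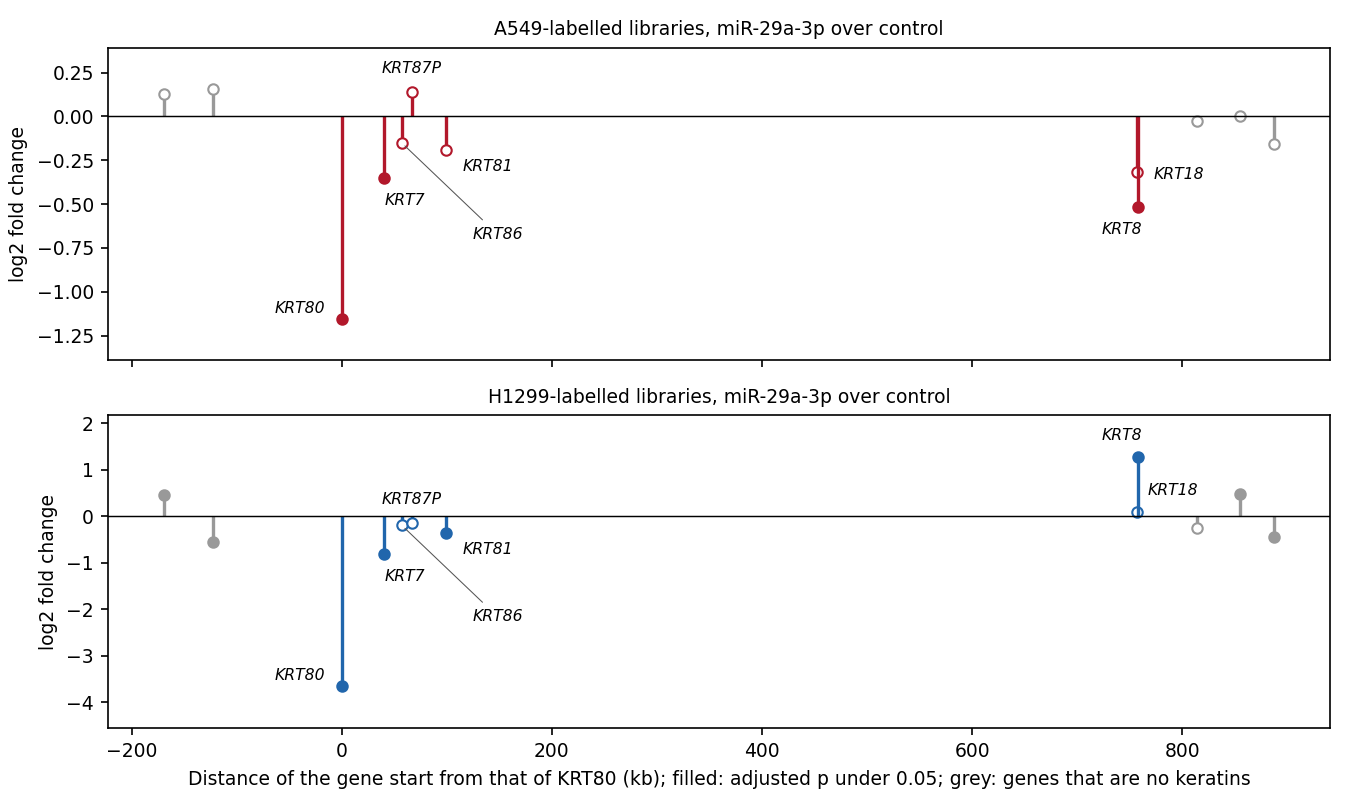
Log2 fold change, miR-29a-3p over control, against the distance of each gene's start from that of KRT80 in kb, for the keratins (coloured) and the other tested genes at the ends of the interval (grey), with filled points where the adjusted p is under 0.05. KRT80 is the lowest point under both labels, and KRT8 lies below 0 in the A549-labelled and above 0 in the H1299-labelled libraries.

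Genes whose levels ran most like KRT80 were taken from 7747 candidates by the Euclidean distance between mean-centred log2 profiles over the 8 libraries, a description with no test. The nearest were H1-10, a linker histone (distance 1.72), SLC2A3, a glucose transporter (1.79), GEM, a small GTPase (1.86), HINT3, a nucleotide hydrolase (1.89), and PMP22, a myelin protein (1.96). H1-10 averaged 30.6 ± 7.7 FPKM in the H1299-labelled miR-29a-3p libraries and 156.8 ± 1.3 in their controls, and 57.5 ± 0.11 against 67.3 ± 1.1 in the A549-labelled ones (SD, n = 2 each). PMP22 averaged 3.14 ± 0.19 FPKM in the H1299-labelled miR-29a-3p libraries and 13.6 ± 0.77 in their controls, and 2.81 ± 0.84 against 6.78 ± 0.26 in the A549-labelled ones (SD, n = 2 each). All 5 were further from KRT80 than the nearest gene of any other keratin was from that keratin. Those ran from CUEDC1 for KRT18, at 0.227, to SMOC1, a matrix glycoprotein, for KRT7, at 0.579, with CCL3, a chemokine, for KRT19, at 0.356, and DDX10, an RNA helicase, for KRT10, at 0.399.

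Apart from the 9, the table listed 33 keratin genes, of which 1 passed the filter. This was KRT34, a hair keratin that passed only through the A549-labelled miR-29a-3p libraries (1.29 and 1.06 FPKM), so its test result is left out. The remaining ones had at most 0.890 FPKM in any library.

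Of the 15 listed genes of other intermediate filaments, 11 were tested. NES and PRPH passed the filter only through the group in which each was high, so they are left out of the counts. Of the other 9, 1 was higher and 2 were lower in the A549-labelled libraries, where 7.30% of all genes were called higher and 8.66% lower. In the H1299-labelled libraries 6 of the 9 were higher and 3 were not called, where 25.1% of all genes were called higher. NEFL, a neurofilament chain, averaged 8.06 ± 1.7 FPKM in the H1299-labelled miR-29a-3p libraries and 2.28 ± 0.008 in their controls (SD, n = 2 each), and its log2 fold change was 1.45. SYNM, which links filaments to adhesion sites, rose by 0.97 in the same libraries. The nuclear lamin LMNB2 fell in the A549-labelled libraries (-0.24) and rose in the H1299-labelled ones (0.68), and INA, a neuronal filament gene, rose in both (0.25 and 0.49). The lamin LMNB1 fell in the A549-labelled libraries (-0.78).

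Genes that anchor keratin filaments at the membrane moved both ways. Of 8 tested desmosome genes of 14, DSC3 passed the filter only through the H1299-labelled miR-29a-3p libraries. Of the other 7, 3 were lower and 4 were not called in the A549-labelled libraries (16.0% of all genes were called), and 2 were higher and 4 lower in the H1299-labelled ones (50.0% of all genes were called). DSP, the plakin that binds keratins at desmosomes, fell under both labels, at 5.49 ± 0.01 FPKM against 7.90 ± 0.46 in the controls of the A549-labelled libraries and 12.4 ± 0.32 against 16.5 ± 0.31 in those of the H1299-labelled ones (SD, n = 2 each). JUP, a catenin of the plaque, fell in the A549-labelled libraries (-0.35) and rose in the H1299-labelled ones (0.28), as KRT8 did. The largest fall of the 7 in the H1299-labelled libraries was that of PKP3 (-0.86, adjusted p = 0.00058), which was not called in the A549-labelled ones. Of 9 tested hemidesmosome and plakin genes of 10, with EVPL left out for the same reason, 1 of 8 was higher and 3 lower in the A549-labelled libraries, and 2 were higher and 3 lower in the H1299-labelled ones, to be read against the same shares of all genes. ITGB4, the integrin chain that keratin filaments reach through plectin, fell by 0.29 in the A549-labelled libraries and rose by 0.80 in the H1299-labelled ones, and ITGA6, its partner, fell by 0.83 in the A549-labelled ones. PPL fell under both labels (-0.25 in the A549-labelled and -0.72 in the H1299-labelled libraries), and COL17A1 rose under both (0.36 and 0.51).

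Of 7 tested epithelial transcription factors and splicing regulators of 14, GRHL3 passed only through the H1299-labelled miR-29a-3p libraries. Of the other 6, 1 was higher and 2 lower in the A549-labelled libraries (7.30% and 8.66% of all genes), and 2 were higher and 4 lower in the H1299-labelled ones (25.1% and 24.8% of all genes). TFAP2C, an AP-2 factor, averaged 2.44 ± 0.43 FPKM in the H1299-labelled miR-29a-3p libraries and 9.47 ± 0.05 in their controls (SD, n = 2 each), and its log2 fold change was -1.61. KLF5 fell under both labels (-0.45 and -0.57), KLF4 rose in the A549-labelled libraries (0.69) and fell in the H1299-labelled ones (-0.39), and ELF3 rose in the H1299-labelled ones (0.95). Of 3 tested cornified envelope genes of 17, CSTA passed only through the H1299-labelled miR-29a-3p libraries, and CNFN (0.94) and SBSN (0.43) rose in the H1299-labelled libraries. In the A549-labelled libraries neither was called (adjusted p = 0.98 for CNFN and 0.23 for SBSN).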

How the data were processed

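RNA was isolated with TRIzol and libraries were prepared with a VAHTS kit, as the labels' protocols state. The authors deposited 1 table with an FPKM value for each gene and library, per the file headers. StringTie and GRCh38 are named in the submitters' processing notes; no source used here gives versions, aligner, annotation or strand setting. Genes that reached 1 FPKM in 2 or more of the 8 libraries were tested. limma 3.58.1 (R 4.3.3) was fitted to log2(FPKM + 1) with 4 group means, a variance trend, 4 residual degrees of freedom and Benjamini-Hochberg adjustment. The fit was tested on simulated data with normal noise at the spread of these libraries and changes put into genes of higher level. That test cannot show whether calls hold at low levels, with shared reads or with replicates that are not independent. Tests had been planned for counts or normalised values, and the table holds the second kind. A gene listed for 1 line only was taken as 0 in the other.

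Depth was estimated from the value of 1 fragment among genes under 0.2 FPKM. Only 38.2% to 42.1% of low values then came out whole within 0.02, so no count test was run, and depth limits KRT17 above all. Positions, 3′ UTRs and shared windows came from GENCODE 29, which holds 31105 of the 31461 identifiers, and the microRNA sequence from RefSeq. The members, gene lists and naming rules were chosen with earlier results of these data known. All 9 members are named, with the 5 genes nearest to KRT80 and the nearest to KRT7, KRT10, KRT18 and KRT19. Of the called genes of the lists only some are named, and genes left out can have larger changes than those named. Alternatives were the pseudocount, filter, scaling, fitting a line alone, a replicate block, leaving out each library, and summed copies.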

Additional observations from a re-analysis of the deposited data

Results flagged for a closer look

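For 6 keratins the responses to miR-29a-3p differed between the libraries of the 2 labels in limma's test of the difference itself (A549-labelled minus H1299-labelled, log2 scale). KRT80 fell under both labels and by less in the A549-labelled libraries, a difference of 2.51 (adjusted p = 0.00013). KRT19 rose under both and by less in the A549-labelled libraries, a difference of -1.35 (adjusted p = 0.00021). KRT8 fell in the A549-labelled and rose in the H1299-labelled libraries, a difference of -1.80 (adjusted p = 0.00032), with 2 of 2 treated libraries below both controls under the A549 label and 2 of 2 above them under the H1299 label. KRT10 fell in the H1299-labelled libraries, with a difference of 1.21 (adjusted p = 0.0046). The differences of KRT7 (0.45, adjusted p = 0.027) and KRT18 (-0.41, adjusted p = 0.046) were smaller and lost the call when single libraries were left out. CDKN2A and 7 of 8 marker genes of A549 lay opposite to the labels of the lines, whose identity was not tested. The sign of each difference is therefore given by label.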

How the results depend on the processing

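Over the settings tried, the calls of KRT80, KRT19 and KRT10 kept their side of the threshold and their direction in each comparison. Leaving out 1 library at a time left 2 to 4 keratins called in the A549-labelled libraries, with 2 without miR-29a-3p library 2, control 1 or control 2, 5 to 7 in the H1299-labelled ones, 4 to 6 for the difference of the responses and 6 to 7 between the controls. All-gene calls fell to 1066 to 1212 of 2336 in the A549-labelled libraries when 1 of them was left out and to 1071 with that line fitted alone, both with fewer samples, and to 3773 of 7312 in the H1299-labelled ones with a mean of at least 5 FPKM required, which tests fewer genes. Counting any 6mer in the longest 3′ UTR, 2 keratins rather than 1 held a seed match. Directions reversed only for values near 0 that had not been called, and the cause was not tested: the KRT86 difference of responses at pseudocount 0.1 (-0.0058) and without H1299-labelled control 2 (-0.059; highest 0.15 on leaving out a library), the KRT18 difference between controls with median-of-ratios scaling (-0.15), without A549-labelled control 1 (-0.024) and without H1299-labelled control 2 (-0.13; highest 0.16), and the KRT18 response in the H1299-labelled libraries without control 2 (-0.049; highest 0.24). Without the filter, KRT7 in the A549-labelled libraries (adjusted p = 0.089) and KRT81 in the H1299-labelled ones (0.074) lost the call, as did the differences of responses of KRT18 (0.10) and KRT7 (0.065), which left 4 of 6; with TPM scaling KRT18 in the A549-labelled libraries (0.049) and KRT86 in the H1299-labelled ones (0.039) gained it, and KRT8 between the controls (0.064) and the KRT18 difference of responses (0.063) lost it. Numbers shared by replicates did not pair them, with correlations of -0.053 to 0.068 over 5686 genes. The replicate block gave 4, 7, 6 and 7 called keratins (A549-labelled, H1299-labelled, difference, controls), the added one being KRT86 (adjusted p = 0.042).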
